A study of Rattus norvegicus with 72 samples.

Results

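The 9 genes described here (C1qa, C1qb, C1qc, Mrc1, Cd163, Folr2, Cx3cr1, Csf1r and Apoe) are often used as markers of the interstitial macrophages of the lung. They were chosen by symbol, and all 9 had a row in the count table of 30042 genes. The table held 72 libraries, 1 from the lung of each of 72 adult male Sprague-Dawley rats, which inhaled either filtered air or airborne diesel exhaust particles by whole-body exposure, for 6 hours on each of 4 days. The particle concentration was 200 or 1000 ug/m3, and lungs were taken 1, 7 or 27 days after the exposure. Sample titles carry the letter H or L: the 1000 ug/m3 lungs and their air lungs carry H, and the 200 ug/m3 lungs and their air lungs carry L. There were thus 4 groups of 6 rats on each of 3 days, named here air H, 1000 ug/m3, air L and 200 ug/m3. Whole lung RNA was sequenced, so that fewer cells of a type and less RNA per cell cannot be told apart.

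Interstitial macrophages live in the connective tissue around airways, vessels and alveolar walls, whereas alveolar macrophages lie in the air space and take up inhaled particles. C1qa, C1qb and C1qc encode the chains of C1q, the recognition molecule that starts the classical complement pathway and that macrophages themselves secrete. Mrc1 (the mannose receptor CD206), Cd163 (the scavenger receptor for haemoglobin bound to haptoglobin) and Folr2 (folate receptor beta) are endocytic receptors, of which Mrc1 is also made by alveolar macrophages. Csf1r is the receptor for CSF1 and IL-34, on which most macrophages depend, and Cx3cr1 is the receptor for the chemokine fractalkine on monocytes and some tissue macrophages. Apoe encodes apolipoprotein E, a lipid carrier made by macrophages and by several other cell types.

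Levels are given as CPM, counts relative to the total of the library, scaled by TMM, a correction for library composition. They are not per transcript length, so a level was compared between groups but never between genes. Total counts ranged from 1042336 to 2397971 per library on day 1, from 3471134 to 6279763 on day 7 and from 3761631 to 6520180 on day 27. Below these ranges were 3 shallow libraries, of the 1000 ug/m3 animals 037 on day 7 (105453 counts), 024 on day 27 (439393) and 045 on day 27 (149004). The lung genes Sftpc, of alveolar type II cells, and Cdh5, of endothelium, were at 2840 CPM or more and at 400 CPM or more in every library. The animals 089 and 094 of the 200 ug/m3 group on day 27 stood apart from the other 70 in Mrc1, narrowly in C1qb, and in some genes of alveolar macrophages. The differences of that group on day 27 are also given without them.

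The 3 C1q genes varied together across lungs, and the RefSeq gene table places C1qb, C1qc and C1qa next to each other in that order on chromosome 5. Promoters of 2 of them are shown, with that of Mrc1, which like C1qb was below all other libraries in animals 089 and 094. Each window runs from 250 bases before to 50 bases after the annotated start in RefSeq (build GRCr8), 5′ to 3′ on the strand of the gene. C1qa lies at chr5:154419884-154420183 on the minus strand, C1qb at chr5:154407778-154408077 on the minus strand and Mrc1 at chr17:82157475-82157774 on the plus strand. Capitals mark the motif TGCTGA, known to be bound by factors of the MAF family, and the core GAGGAA, known to be bound by PU.1, each searched on both strands.
C1qa: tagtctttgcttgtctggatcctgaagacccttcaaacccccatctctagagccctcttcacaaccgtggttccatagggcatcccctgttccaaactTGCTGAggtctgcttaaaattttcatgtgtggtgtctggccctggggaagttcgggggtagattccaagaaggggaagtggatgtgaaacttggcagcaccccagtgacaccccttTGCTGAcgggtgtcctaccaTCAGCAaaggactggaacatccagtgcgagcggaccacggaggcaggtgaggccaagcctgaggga
C1qb: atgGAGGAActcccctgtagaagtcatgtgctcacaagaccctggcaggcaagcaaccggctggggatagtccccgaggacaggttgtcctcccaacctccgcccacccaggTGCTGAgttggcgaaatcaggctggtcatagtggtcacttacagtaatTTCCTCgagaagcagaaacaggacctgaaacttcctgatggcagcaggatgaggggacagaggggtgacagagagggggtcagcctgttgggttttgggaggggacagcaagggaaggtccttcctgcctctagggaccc
Mrc1: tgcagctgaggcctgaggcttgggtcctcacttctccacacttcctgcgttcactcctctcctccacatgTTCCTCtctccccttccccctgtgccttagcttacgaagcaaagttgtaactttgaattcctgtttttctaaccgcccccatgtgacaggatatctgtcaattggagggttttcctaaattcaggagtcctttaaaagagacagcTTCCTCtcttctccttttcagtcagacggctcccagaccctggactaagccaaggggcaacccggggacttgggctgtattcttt
The C1qa window held 3 copies of TGCTGA and none of GAGGAA, the C1qb window 1 and 2 copies, and the Mrc1 window none and 2. TGCTGA occurred in 18.4% and GAGGAA in 27.6% of the 33469 windows of this length in the table. Windows were matched for 8 of the 9 genes, all but C1qc. Among the other 5, Folr2 had 1 copy of TGCTGA, Csf1r had 2 copies of GAGGAA, 1 of the 3 Apoe starts had 1 copy of GAGGAA, and Cd163 and Cx3cr1 had neither. These matches describe letters and no binding was measured.

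No change of the 9 genes was detected between exposed lungs and the air lungs of the same day and letter in any of the 6 comparisons, by edgeR's quasi-likelihood test with Benjamini-Hochberg adjustment over all genes tested and a threshold of 0.05. On day 1, 0% of the 12304 genes tested passed in either comparison, and 8 members were tested, since Folr2 was too low to enter. On day 7, 0% of 14331 genes passed at 1000 ug/m3 and 0.00698%, a single gene that is no member, at 200 ug/m3. On day 27, 0% of 14761 genes passed at either concentration. At an unadjusted p under 0.05, 1 member was found at 200 ug/m3 on day 1 (Csf1r), beside 741 of 12304 genes. Another was found at 200 ug/m3 on day 7 (Cd163), beside 818 of 14331 genes. None was found in the other 4 comparisons. At 1000 ug/m3 these had 419 of 12304 genes on day 1, 629 of 14331 on day 7 and 1034 of 14761 on day 27. At 200 ug/m3 on day 27 there were 1430 of 14761. The count of 0 members held in all 87 refits with other settings, DESeq2 and limma-voom among them, of these 6 comparisons and of the 3 dose differences and the pooled comparison given below.

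Values of exposed and air lungs overlapped for all 9 genes in all 6 comparisons. Over the whole table, the share of genes without overlap was 0.194% at 1000 ug/m3 and 0.421% at 200 ug/m3 on day 1. It was 0.247% and 0.428% on day 7, and 0.562% and 0.354% on day 27. The intervals around the differences show how large a change could have been missed. The 95% interval lay within a 2-fold change in either direction for all 8 members tested at 1000 ug/m3 on day 1 and for all 9 members at both concentrations on day 27. It reached 2-fold or past it for Cd163 at 200 ug/m3 on days 1 and 7 and for Folr2 at 1000 ug/m3 on day 7. Without animals 089 and 094 it also did so for Folr2 at 200 ug/m3 on day 27 (-0.16 to 1.14).

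**Figure D1:**
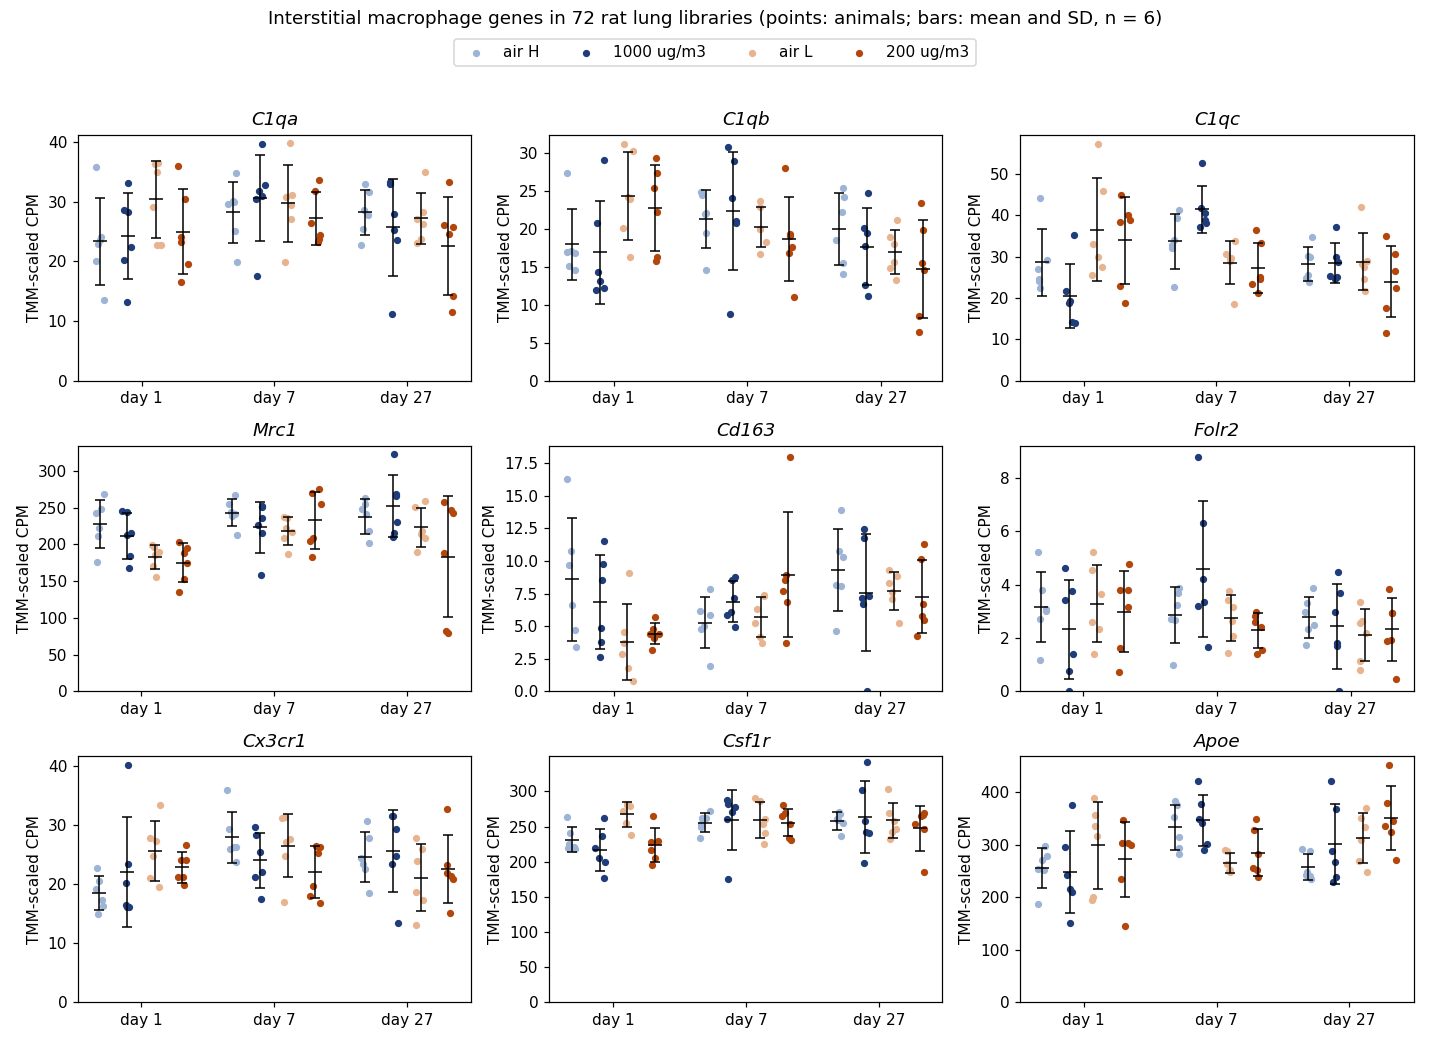
TMM-scaled CPM (linear axis from 0) of the 9 genes in 72 lungs, by day and group, with 1 point per animal and bars for the mean and SD of 6 animals. Exposed and air points overlap within each day and letter for every gene, and Mrc1 of animals 089 and 094 (80 and 82.4 CPM) lies under all other points of its panel.

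The pooled comparison of all 36 exposed with all 36 air lungs, blocked by day and letter, gave the narrowest intervals. In it, 0.0134% of 14956 genes passed (2 genes, neither a member), and none of the 9 members did. The member differences ran from -0.07 for Mrc1 (SE 0.06, 95% interval -0.19 to 0.06) to 0.14 for Cd163 (SE 0.13, -0.11 to 0.40) on the log2 scale, and all 9 had an adjusted p of 1 and an unadjusted p above 0.05. Their median was -0.04, against 0 over all genes tested, of which 632 had an unadjusted p under 0.05. The test of whether the effect differed between the 2 concentrations also passed for no member. It passed for 0.00813% of genes on day 1, 0% on day 7 and 0% on day 27, and the smallest adjusted p of a member was 0.998, 0.934 and 0.662 on those days. No member had an unadjusted p under 0.05 in it, beside 537 of 12304, 747 of 14331 and 1961 of 14761 genes on those days.

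**Figure D2:**
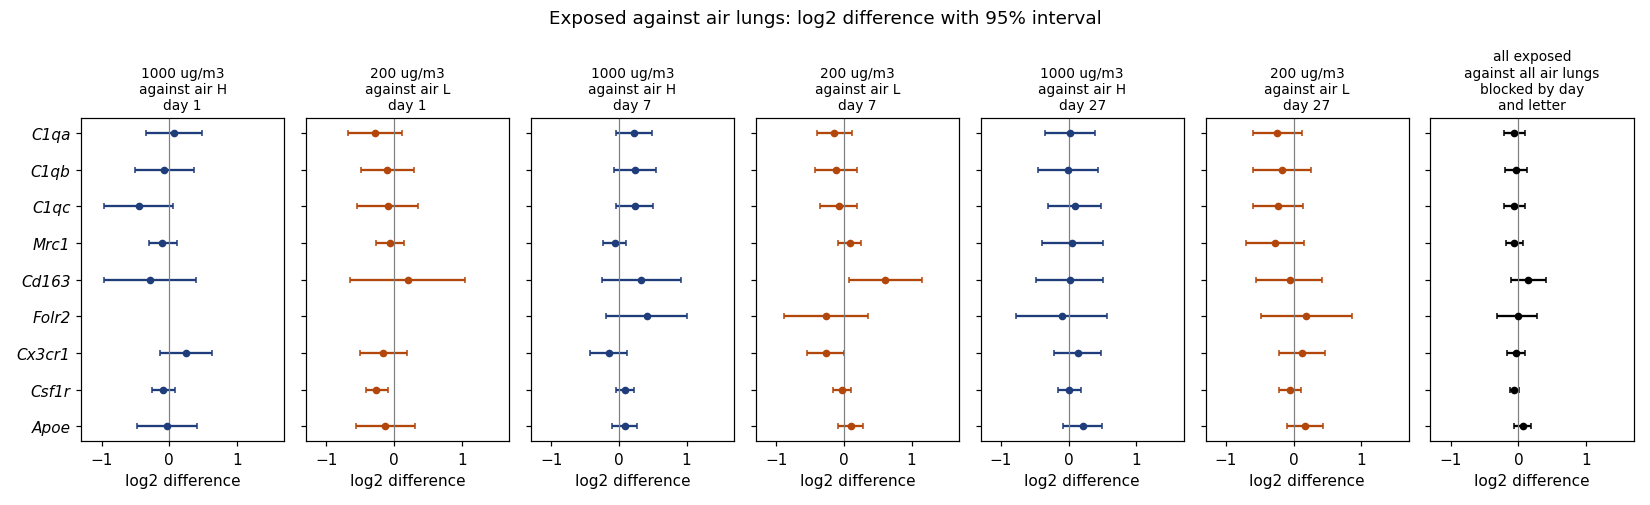
Log2 difference between exposed and air lungs with its 95% interval for each gene, in the 6 comparisons by day and letter and in the pooled one (Folr2 was not tested on day 1). The pooled intervals all include 0 and lie within -0.31 to 0.40.

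The 3 C1q chains did not pass in any exposed group, and their differences had both signs. At 1000 ug/m3 on day 7 they lay at 0.22 (SE 0.14) for C1qa, 0.23 (0.16) for C1qb and 0.23 (0.14) for C1qc on the log2 scale. At 200 ug/m3 on the same day they lay at -0.14 (0.13), -0.12 (0.16) and -0.07 (0.14). The difference between those effects, 0.36 for C1qa, had a 95% interval of -0.01 to 0.73 and an adjusted p of 0.934.

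C1qc had the widest span of group means of the 3 chains, from 20.5 ± 7.79 CPM (SD, n = 6) at 1000 ug/m3 on day 1 to 41.5 ± 5.70 CPM at 1000 ug/m3 on day 7. C1qa group means ran from 22.6 ± 8.20 CPM (200 ug/m3, day 27) to 30.6 ± 7.23 CPM (1000 ug/m3, day 7), and those of C1qb from 14.7 ± 6.51 CPM (200 ug/m3, day 27) to 24.4 ± 5.76 CPM (air L, day 1). Without animals 089 and 094 the 200 ug/m3 group of day 27 had 27.4 ± 3.97 CPM of C1qa and 18.4 ± 4.10 CPM of C1qb (SD, n = 4). The lowest group means were then 23.4 ± 7.28 CPM of C1qa (air H, day 1) and 16.9 ± 6.82 CPM of C1qb (1000 ug/m3, day 1). The spread within a group was of the same order as these spans for C1qa and C1qb. For C1qc it was smaller than the span, and the highest group mean was 2.02 times the lowest. The median coefficient of variation over the 12 groups was 22.7% for C1qa, 25.6% for C1qb and 23.2% for C1qc. Day 1 libraries held only 14 to 60 C1qa counts each, against 50 to 204 in the deep libraries of the later days.

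On day 7, C1qc was higher in the 1000 ug/m3 lungs than in the 200 ug/m3 lungs, at 37.1, 39.8 and 52.7 CPM (lowest, median and highest of 6) against 21.2, 24.9 and 36.4 CPM. The groups did not overlap, which held for 9.92% of all genes in this comparison. The log2 difference was 0.51 (SE 0.14, adjusted p = 0.00645), and 27.9% of the 14331 genes tested passed, so that 2 members of 9 passing is near the share of all genes. The highest value came from the shallow library of animal 037, with 6 C1qc counts, and without that library the difference was 0.52 (adjusted p = 0.00736). Leaving out each of the 12 libraries in turn kept it between 0.44 and 0.61 with an adjusted p of at most 0.0211.

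The 1000 ug/m3 and 200 ug/m3 lungs also carry different letters, so that concentration and letter set cannot be told apart in that comparison. The air lungs of the same day gave C1qc at 22.6, 33.5 and 41.3 CPM with the letter H and at 18.5, 29.7 and 33.7 CPM with the letter L. Their log2 difference was 0.21 (SE 0.14, adjusted p = 0.281) and the values overlapped. C1qa (0.25, SE 0.14) and C1qb (0.39, SE 0.16) did not pass between the exposed groups, with adjusted p of 0.177 and 0.0695. Without the 200 ug/m3 animal 074, C1qb passed at 0.54 (adjusted p = 0.00742), and without the 1000 ug/m3 animal 014, Folr2 passed at 0.86 (adjusted p = 0.0368).

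In the same comparison 0% of genes passed on day 1 and 0% on day 27. At an unadjusted p under 0.05 were 2 of 8 members on day 1, beside 1536 of 12304 genes. On day 27 it was none of the members, beside 1086 of 14761 genes. On day 1, C1qc had the opposite sign, at 14, 19 and 35.1 CPM in the 1000 ug/m3 lungs against 18.7, 38.6 and 45.1 CPM in the 200 ug/m3 lungs. That difference of -0.74 (SE 0.26) did not pass (adjusted p = 0.245), and the values overlapped. On day 27 the C1qc difference was 0.30 (SE 0.20, adjusted p = 0.785), and 0.05 (SE 0.16) without animals 089 and 094.

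Mrc1, the mannose receptor, did not pass in any comparison. Outside the 200 ug/m3 group of day 27 its group means lay between 175 ± 26.2 CPM (SD, n = 6; 200 ug/m3, day 1) and 252 ± 42.3 CPM (1000 ug/m3, day 27). On day 1 the air H lungs lay at 175, 232 and 268 CPM and the air L lungs at 156, 188 and 199 CPM (lowest, median and highest), a log2 difference of 0.30 (SE 0.10, adjusted p = 0.0966). The 2 sets overlapped. The exposed lungs had a like offset on that day, 0.26 (SE 0.11, adjusted p = 0.300), with 167 to 245 CPM at 1000 ug/m3 and 135 to 204 CPM at 200 ug/m3. On day 7 the differences between the sets were 0.13 (SE 0.08) in air lungs and -0.02 (SE 0.09) in exposed lungs.

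Animals 089 and 094 had 82.4 and 80 CPM of Mrc1, while the other 4 rats of the 200 ug/m3 group on day 27 had 189 to 258 CPM and the other 70 libraries 135 CPM or more. C1qb was at 6.43 and 8.47 CPM in them and at 8.78 CPM or more in the other 70, where the lowest value came from the shallow library of animal 037. Alveolar macrophage genes were low in the same 2 libraries. Abcg1, a cholesterol exporter, was at 118 and 106 CPM (133 or more in the other 70), Krt79 at 14.2 and 7.06 CPM (17.5 or more). Plet1, also on the alveolar macrophage list, was at 25.2 and 22.6 CPM (23.3 or more), so that animal 089 lay within the range of the others. Clec7a, the gene of the beta-glucan receptor dectin-1 and not on that list, was at 68.6 and 70.1 CPM (97.8 or more). Sftpc was at 4440 and 5490 CPM, within the range of the others, and the libraries held 4307934 and 4161786 counts.

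In the 200 ug/m3 group of day 27 these animals were the lowest pair of 6 for 14 of 16 alveolar macrophage genes (87.5%) and for 7 of the 9 genes described here (77.8%). The same held for 7 of 20 other interstitial macrophage genes (35%) and for 12.6% of 15306 genes in all. They were singled out after their values were seen, and no test was made on them.

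The difference of Mrc1 between 200 ug/m3 and air lungs on day 27 was -0.28 (SE 0.22, adjusted p = 0.704) with all 6 rats. Without the 2 animals it was 0.07 (SE 0.10), and the pooled difference was 0.00 (SE 0.04) in place of -0.07. Those of C1qa, C1qb and C1qc went from -0.24, -0.17 and -0.23 to 0.03, 0.14 and 0.02, and none passed in either case. Folr2 went from 0.19 to 0.49 (SE 0.33), Cd163 from -0.06 to 0.15 (SE 0.25) and Cx3cr1 from 0.12 to 0.24 (SE 0.18), and none of these passed. The difference between the doses of the effect on that day went from -0.30 to -0.59 (SE 0.45) for Folr2 and did not pass. The SE of Mrc1 was 0.22 or 0.23 in comparisons of a pair of groups within day 27 and 0.08 to 0.11 in those within day 1 or day 7. Between days it was 0.21 and 0.19 in air L lungs, from a fit that held these 2 animals, and 0.09 and 0.08 in air H lungs. The summed level of the 20 alveolar macrophage genes was 745 to 1210 CPM in the 200 ug/m3 lungs of day 27 and 1070 to 1300 CPM in their air lungs, and its part in the differences was not tested.

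**Figure D3:**
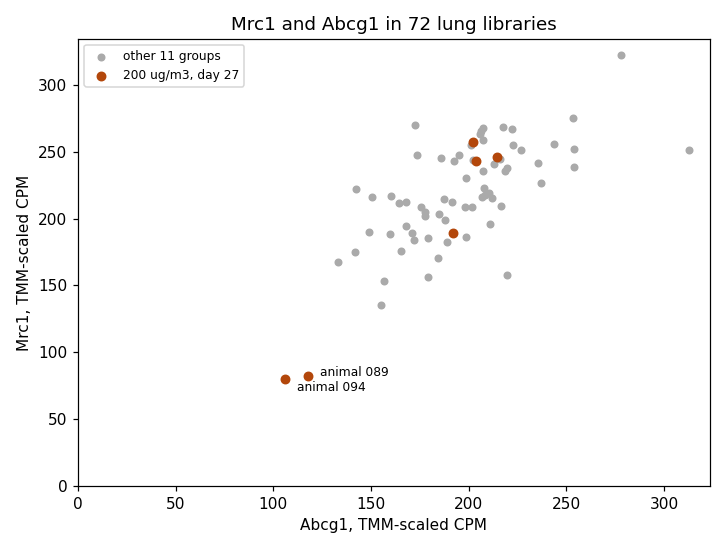
Mrc1 against Abcg1 in 72 lung libraries, both in TMM-scaled CPM on linear axes from 0, with the 6 rats of the 200 ug/m3 group on day 27 in orange. Animals 089 and 094 lie below 120 CPM of Abcg1 and near 80 CPM of Mrc1, and the other 4 rats of that group lie among the remaining libraries.

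Cd163, the haemoglobin scavenger receptor, was counted thinly and varied widely within groups. A library held a median of 23 Cd163 counts, and its coefficient of variation within a group had a median of 37.8%. At 200 ug/m3 on day 7 it lay at 3.72, 8.11 and 18 CPM (lowest, median and highest), against 3.75, 5.79 and 7.38 CPM in air L lungs. The log2 difference was 0.61 (SE 0.28, unadjusted p = 0.0358) and did not pass (adjusted p = 0.824), and the highest value, of animal 076, stood alone above the other 5 exposed rats at 3.72 to 8.95 CPM.

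In air H lungs, Cd163 was 4.66, 9.27 and 13.9 CPM on day 27 against 1.95, 5.43 and 7.83 CPM on day 7, a rise of 0.78 on the log2 scale (SE 0.27, adjusted p = 0.0229). The values overlapped, and 30% of the 14502 genes tested passed between these days, with 2 of 9 members among them. The call was lost without the day 7 animal 034 (0.66, adjusted p = 0.0566) and without the day 27 animal 042 (0.66, adjusted p = 0.0772). Animals with the letter H fall into numbers up to 24 and numbers from 25 on. With the lower numbers, Cd163 lay at 4.80 to 7.83 CPM on day 7 and 4.66 to 10.8 CPM on day 27, and with the higher numbers at 1.95 and 6.18 against 10.3 and 13.9 CPM.

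Between days 1 and 7, Cd163 of air H lungs had a difference of -0.70 (SE 0.32, adjusted p = 0.0809). It passed when the day 1 animals 003 (-0.88, adjusted p = 0.0303) or 004 (-0.86, adjusted p = 0.0417), or the day 7 animal 012 (-0.87, adjusted p = 0.0381), were left out. In air L lungs the differences were 0.53 (SE 0.38) from day 1 to 7 and 0.42 (SE 0.27) from day 7 to 27, and neither passed. On day 1 the air H lungs had 3.39, 8.17 and 16.3 CPM and the air L lungs 0.784, 3.28 and 9.08 CPM. That was the widest offset of any member between the letter sets, 1.11 (SE 0.38), and it missed the threshold (adjusted p = 0.0959).

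Folr2, folate receptor beta, was near the limit of detection. Group means lay between 2.12 ± 0.968 CPM (SD, n = 6; air L, day 27) and 4.58 ± 2.56 CPM (1000 ug/m3, day 7), and no library held more than 24 counts. On day 1 a library held 0 to 9 counts, and the gene did not enter the test. The 0 of animal 006 at 1000 ug/m3 on day 1 allows up to 2.62 CPM (3 counts in its total), and that of animal 045, which was also at 0 for Cd163, allows up to 20.1 CPM. These limits cover counting error only. On days 7 and 27 Folr2 did not pass in any comparison.

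Csf1r, the CSF1 receptor, varied least in CPM of the 9. Its group means ran from 216 ± 29.7 CPM (SD, n = 6, at 1000 ug/m3 on day 1) to 268 ± 17.7 CPM (air L, day 1), a ratio of 1.24. Its coefficient of variation had a median of 9.77%, against 14.6% for Mrc1 and 15.4% for Apoe. A library held a median of 1012.5 counts of Csf1r, 852 of Mrc1 and 1105.5 of Apoe. The other members had fewer counts, down to a median of 8 for Folr2, so that counting error adds more to their spread. At 200 ug/m3 on day 1 Csf1r lay at 195, 222 and 265 CPM (lowest, median and highest) and in the air L lungs at 237, 276 and 282 CPM. No exposed lung of that group was above the air median, but the ranges overlapped. The log2 difference of -0.26 (SE 0.08, 95% interval -0.42 to -0.09) had an unadjusted p of 0.00375 and did not pass over all genes (adjusted p = 0.656).

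At 1000 ug/m3 on day 1 the Csf1r difference was -0.09 (SE 0.09), and the difference between the effects, 0.17 (SE 0.12), did not pass (adjusted p = 0.998). The air H lungs of day 1, at 218, 223 and 264 CPM, were also below the air L lungs (-0.23, SE 0.08, adjusted p = 0.117), without passing. The air L lungs of that day thus had the highest Csf1r mean of all 12 groups, and the other group means of the set L lay between 223 and 260 CPM. On days 7 and 27 all exposure differences of Csf1r lay between -0.05 and 0.09, with an SE of 0.06 to 0.09.

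Cx3cr1, the fractalkine receptor, rose in air H lungs between day 1 and day 7. It was 14.9, 18.3 and 22.8 CPM on day 1 and 23.8, 26.3 and 35.9 CPM on day 7, with no overlap. The log2 difference was 0.59 (SE 0.16, adjusted p = 0.0035), and it kept an adjusted p of at most 0.0207 when any of the 12 libraries was left out. Between these groups 38.6% of the 14502 genes tested passed and 18% did not overlap, against 1 of 9 members in each case. Day 1 libraries are shallower than day 7 libraries, so that day and depth cannot be told apart.

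The rise of Cx3cr1 was present in both runs of animal numbers, from 14.9 to 20.6 CPM on day 1 to 26 to 35.9 CPM on day 7 with the lower numbers, and from 17.3 and 22.8 to 23.8 and 29.3 CPM with the higher. In air L lungs Cx3cr1 lay at 19.5, 26 and 33.5 CPM on day 1 and at 17, 27.4 and 31.4 CPM on day 7, a difference of 0.02 (SE 0.18, adjusted p = 0.962). Whether the change over days differed between the letter sets was not tested. In the air L lungs, 13.6% of 14558 genes passed between days 1 and 7 and 16.2% between days 7 and 27, and none of the 9 members did. At an unadjusted p under 0.05 was no member from day 1 to 7, beside 3864 of these genes. From day 7 to 27 there was 1 member, Cx3cr1, beside 4155 of them. On day 1, air H was below air L by -0.49 (SE 0.18, adjusted p = 0.123), and Cx3cr1 passed in no exposed group.

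Apoe had its highest group mean at 200 ug/m3 on day 27 (351 ± 60.5 CPM, SD, n = 6) and its lowest at 1000 ug/m3 on day 1 (248 ± 77.7 CPM). Its exposure differences on day 1 were -0.03 (SE 0.23) at 1000 ug/m3 and -0.13 (SE 0.22) at 200 ug/m3, and those on days 7 and 27 lay between 0.09 and 0.21 with an SE of 0.09 to 0.14. None passed. The value of 0.21, at 1000 ug/m3 on day 27, came with means of 256 CPM against 254 CPM in air with the lower animal numbers, and of 393 CPM (2 rats, 1 of them the shallow animal 045) against 263 CPM with the higher. On day 7 the H lungs were higher than the L lungs both with and without particles. Air H lungs lay at 283, 333 and 382 CPM and air L lungs at 248, 257 and 290 CPM (0.31, SE 0.09, adjusted p = 0.0153), and the 1000 ug/m3 lungs lay at 290, 345 and 421 CPM against 239, 269 and 349 CPM at 200 ug/m3 (0.30, SE 0.10, adjusted p = 0.0198). Both pairs overlapped.

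Between the air sets 25.5% of 14331 genes passed on day 7, with 1 of 9 members. The Apoe call between air sets was lost without the air H animal 012 (0.26, adjusted p = 0.0509). That between exposed sets was lost without the 1000 ug/m3 animal 038 (0.23, adjusted p = 0.0818) or the 200 ug/m3 animal 074 (0.25, adjusted p = 0.0504). Both were lost when all 72 libraries shared 1 estimate of the spread (adjusted p of 0.158 and 0.17). On days 1 and 27 the Apoe difference between the air sets was -0.24 (SE 0.22) and -0.28 (SE 0.14), with adjusted p of 0.59 and 0.175. In these comparisons 1.68% and 14% of genes passed, and none of the members. At an unadjusted p under 0.05 were 5 of 8 members on day 1, beside 2440 of 12304 genes, and 1 of 9 on day 27, beside 4170 of 14761.

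In air H lungs Apoe was 186, 262 and 297 CPM on day 1, 283, 333 and 382 CPM on day 7, and 234, 244 and 292 CPM on day 27. The difference from day 1 to day 7, 0.37 (SE 0.15), had an adjusted p of 0.0515. That from day 7 to day 27, -0.40 (SE 0.14), passed with an adjusted p of 0.0345 and no longer passed when any 1 of 10 of the 12 libraries was left out, where the adjusted p ran up to 0.128. The same air H lungs of day 7 served in the comparison of letters and in both comparisons of days. With the lower animal numbers Apoe lay at 283 to 382 CPM on day 7 and 241 to 288 CPM on day 27, and with the higher at 293 and 314 against 234 and 292 CPM.

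**Figure D4:**
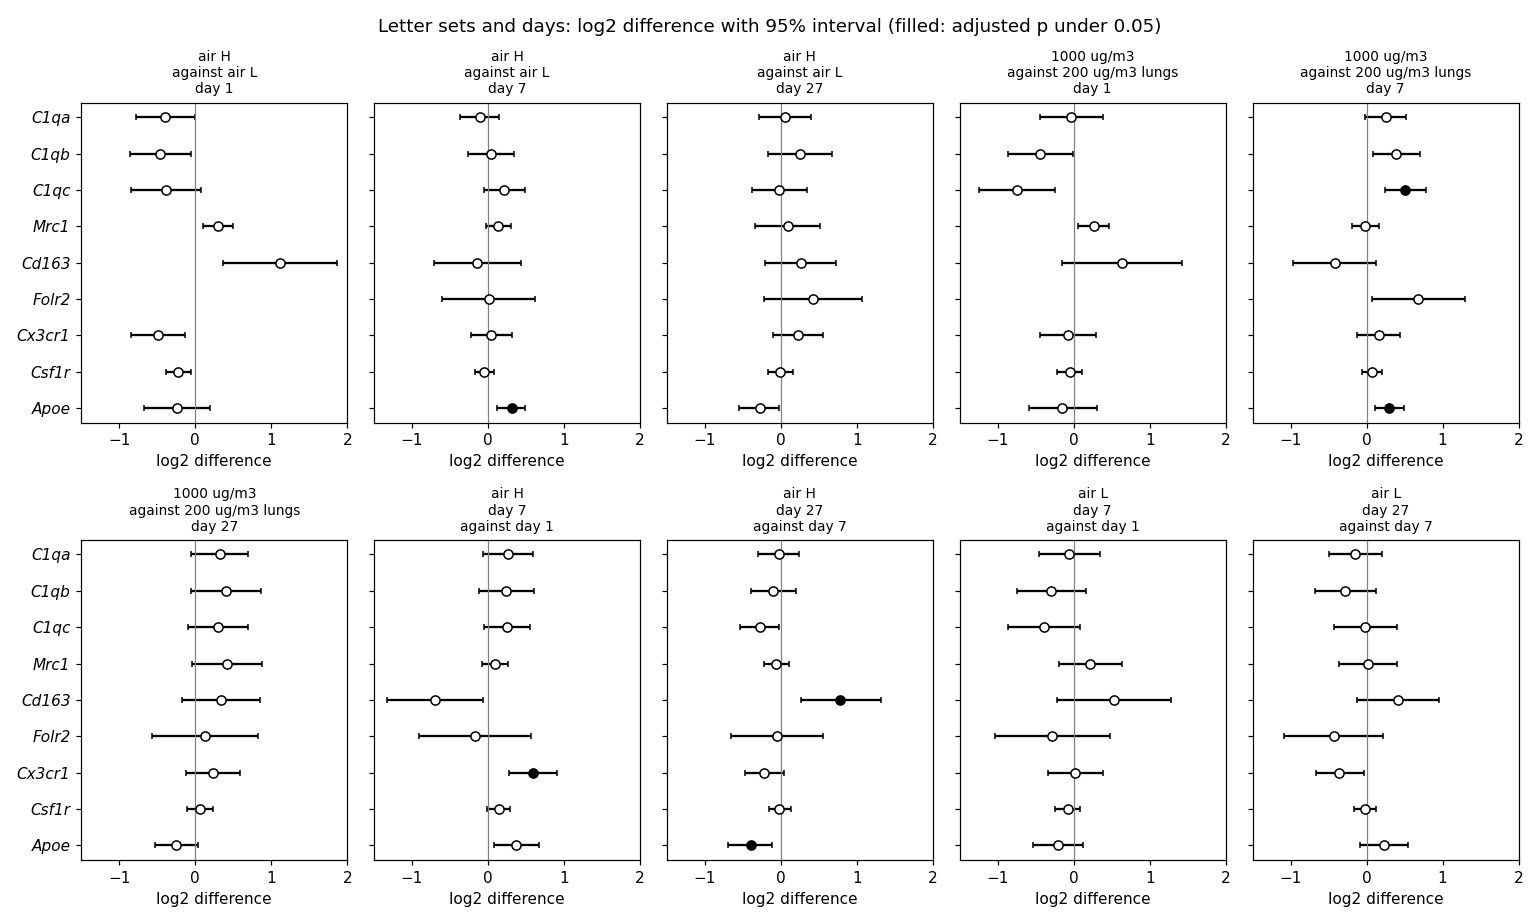
Log2 difference with its 95% interval for each gene between the letter sets on each day (air lungs, then exposed lungs) and between days in air lungs. Filled points passed at an adjusted p under 0.05. On day 7 these are Apoe between the air sets, and C1qc and Apoe between the exposed sets. Over days they are Cx3cr1 from day 1 to 7 and Cd163 and Apoe from day 7 to 27, all in air H lungs only.

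Gene groups around the 9 members were equally without calls after exposure. In 12 lists of 158 genes, of which 154 were in the table, no gene passed in the 6 exposure comparisons, the 3 dose differences or the pooled one. The lists were other interstitial macrophage genes (20 found), alveolar macrophage (20), monocyte (13), dendritic cell and MHC class II (15), NK cell (8), lymphatic endothelial (7) and lung tissue genes (8). The others were complement partners of C1q (15), ligands and transcription factors of the CSF1 and CX3CL1 receptors (14), haemoglobin, iron and folate handling (14), the lipid pathway of apolipoprotein E (17) and the mannose receptor family (6). In the pooled comparison the smallest p among the complement partners was that of C3, at -0.10 (SE 0.06, adjusted p = 1). Among ligands and factors it was that of Cx3cl1, the fractalkine gene, at -0.14 (SE 0.07, adjusted p = 1), and among the lipid genes that of Lipa, the lysosomal acid lipase gene, at -0.08 (SE 0.04, adjusted p = 1). Among other interstitial macrophage genes it was that of Pltp, at -0.14 (SE 0.07, adjusted p = 1).

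Between the air sets of day 7, 44 of the 144 list entries tested passed (30.6%), near the 25.5% of all genes. The 3 genes that are in 2 lists count in each of them. Of 14 ligands and factors, 6 were lower in air H lungs and none higher, among them Cx3cl1 (-1.07, SE 0.14), Csf2rb, a shared receptor chain for GM-CSF (-0.92, SE 0.13), and Inpp5d (-0.40, SE 0.07). Their median was -0.22, against 0.01 over all genes tested. Of 15 complement partners, 2 were higher and 3 lower, with Serping1, the gene of the C1 inhibitor, at -1.90 (SE 0.19), Cd59 at -0.65 (SE 0.06) and Calr, a C1q-binding chaperone, at 0.39 (SE 0.06). Of 14 lipid genes tested, 2 were higher and 2 lower, including Lrp1, an apolipoprotein E receptor, at -0.41 (SE 0.07), and Nr1h3, the gene of the liver X receptor alpha, at 0.26 (SE 0.07).

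Other interstitial macrophage genes had 1 higher and 4 lower of 18 tested in the same comparison, with Pltp at -0.86 (SE 0.17), Lyve1 at -0.62 (SE 0.14) and C5ar1 at -0.51 (SE 0.13). Lyve1 is also made by lymphatic endothelium, whose list had 2 of 7 genes lower and none higher. Those counts, 27.8% and 28.6% of the genes tested, are near the 25.5% of all genes. Lung tissue genes had 4 of 8 lower (50%) and none higher, with Cdh5 at -0.60 (SE 0.09). Alveolar macrophage genes had 1 of 15 higher (Fabp5, 1.35, SE 0.20) and 2 lower, 20% of those tested. The part of these markers in the Apoe difference was not tested. The alveolar macrophage marker Marco had no more than 0.734 CPM in any library.

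**Figure D5:**
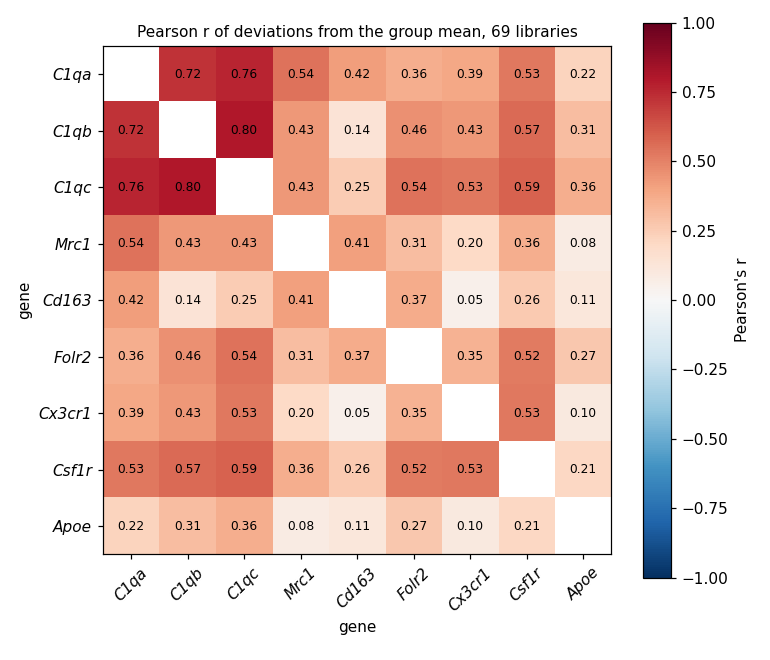
Pearson's r between each pair of genes, from log2(CPM + 1) as deviation from the group mean in the 69 libraries of at least 500000 counts, on a color scale from -1 to 1. The 3 C1q pairs have the highest values (0.72 to 0.80), and the 8 pairs with Apoe lie between 0.08 and 0.36.

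Across the 69 libraries of at least 500000 counts, each taken as the deviation of log2(CPM + 1) from its group mean, the C1q chains went together. Pearson's r was 0.72 for C1qa with C1qb, 0.76 for C1qa with C1qc and 0.80 for C1qb with C1qc. Over all pairs of 10331 genes with a mean of at least 8 CPM, the median r was 0 and the 95th percentile 0.34. These values are descriptions without a test, since the points share libraries, and depth and composition move all genes of a library. In the 45 libraries of days 7 and 27 the 3 values were 0.82, 0.91 and 0.80, and in the 24 shallower libraries of day 1 they were 0.59, 0.62 and 0.82.

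Apoe had an r of -0.11 to -0.02 with the C1q chains on days 7 and 27 and of 0.46 to 0.68 on day 1. The remaining 25 pairs, without Apoe and other than the C1q chains among themselves, lay between 0.05 (Cd163 with Cx3cr1) and 0.59 (C1qc with Csf1r). Without animals 089 and 094 (67 libraries) the C1q pairs lay at 0.63, 0.71 and 0.76. Mrc1 had an r of 0.54 with C1qa, 0.43 with C1qb and 0.43 with C1qc in all 69 libraries. Without the 2 animals these values were 0.31, 0.08 and 0.21.

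Mrc1 had an r of 0.74 with the mean of the alveolar macrophage genes and 0.45 with that of the other interstitial macrophage genes. C1qa had 0.57 and 0.51, C1qb 0.48 and 0.69, and C1qc 0.53 and 0.61, and no test of a difference between these values was made. Without animals 089 and 094 the values were 0.57 and 0.10 for Mrc1, 0.42 and 0.35 for C1qa, 0.28 and 0.58 for C1qb, and 0.41 and 0.50 for C1qc. Csf1r and Cx3cr1 had the highest values of the 9 with the monocyte genes (0.58 and 0.48). With the dendritic cell and MHC class II genes Apoe had the highest value (0.56), followed by C1qc (0.52). Without animals 089 and 094 that order turned, with 0.66 for C1qc and 0.58 for Apoe. Cd163 had 0.25 or less with the alveolar, interstitial and monocyte lists.

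The genes most like the mean of the 3 C1q chains were Psap (r of 0.75), the lysosomal prosaposin gene, Ctsz (0.74), a cathepsin gene, Txn1 (0.74), Capg (0.74) and Tmbim6 (0.73). For the mean of all 9 members they were Psap (0.78), Ctsz (0.74), Tyrobp (0.72), the adaptor of myeloid receptors, Rps18 (0.71) and Rpl15 (0.71), both ribosomal protein genes. The closest gene was Clec7a for Mrc1 (0.82), Itgal for Cx3cr1 (0.73), Cybb for Csf1r (0.65), Gpx4 for Apoe (0.64), Rpl26 for Folr2 (0.60) and Anapc13 for Cd163 (0.55). Without animals 089 and 094, Clec7a with Mrc1 had 0.69, and Psap had 0.72 with the mean of the members. With the C1q mean the order of the 5 genes changed, to Tmbim6 (0.72), Txn1 (0.70), Psap (0.68), Ctsz (0.67) and Capg (0.67). Itgal encodes an integrin chain of leukocytes and Cybb a subunit of the phagocyte NADPH oxidase.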

How the data were processed

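The deposited table holds whole read counts per gene for 72 lungs, 1 library per rat, made by the authors with no normalization. HISAT2 2.1.0 and HTSeq 0.6.1 are listed for the series, with bcl2fastq 2.19, SAMtools 1.8, Trimmomatic 0.35 and the genome build Rnor_6.0, per the submitters' processing notes, which state no roles. Which annotation and strand setting served for counting is not given in the sources used here, so reads of overlapping genes cannot be assigned with certainty. Groups come from the titles and labels; no animal is paired across groups by the labels.

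The test was edgeR's (version 4.0.16, R 4.3.3) with genes filtered by filterByExpr, TMM scaling, a robust quasi-likelihood F test, Benjamini-Hochberg over all genes tested, threshold 0.05. The 24 libraries of a day were fitted together for comparisons within a day, the 36 of a letter for comparisons of days, and all 72, blocked by day and letter, for the pooled one. The SE is the log2 difference divided by the root of F, and the 95% interval is 1.96 SE either way, slightly narrower than the F test implies. All 9 members are named in each comparison or counted. Genes are named from only some of the lists in a comparison. From those, up to 3 genes with the smallest p among those passing are given, otherwise 1 gene. The remaining lists enter only through counts. Members and lists were chosen with earlier results of these data known. None of the 180 pairs of libraries within groups was identical. The scripts were tested on simulated counts. Alternatives used DESeq2 1.42.0, limma 3.58.1 (voom), other size factors, no filter, no shallow libraries, wider fits, a block for animal numbers and, added after seeing the data, leaving out libraries. Depth, and with it the precision of low genes, was lowest on day 1 and in 3 shallow libraries.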

Additional observations from a re-analysis of the deposited data

Results flagged for a closer look

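In 10 of 108 groups of 6 animals (9 genes in 12 groups), the highest or lowest animal was set apart from the other 5 by a gap above Dixon's 95% critical value for 6 samples, where chance flags about 1 in 20 groups. Animal 025 of the air H group on day 1 had 27.4 CPM of C1qb (others 14.6 to 17.1) and 44.3 CPM of C1qc (others 22.4 to 29.3). Animal 030 at 1000 ug/m3 on day 1 had 35.1 CPM of C1qc (others 14 to 21.7) and 40.3 CPM of Cx3cr1 (others 16.1 to 23.5). C1qc was also apart in animal 068 of the air L group on day 7, at 18.5 CPM (others 29 to 33.7), and in animal 086 of the air L group on day 27, at 42 CPM (others 21.7 to 28.9). Animal 076 at 200 ug/m3 on day 7 had 18 CPM of Cd163 (others 3.72 to 8.95), and animal 089 at 200 ug/m3 on day 27 had 185 CPM of Csf1r (others 247 to 269). The shallow library of animal 037 at 1000 ug/m3 on day 7 had 52.7 CPM of C1qc (6 counts, others 37.1 to 41.7) and 176 CPM of Csf1r (20 counts, others 260 to 288).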

How the results depend on the processing

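No exposure comparison, dose difference or pooled comparison gained a call of a member in any of 87 refits with other settings or without animals 089 and 094, and the counts of 0 between sets on days 1 and 27 and between days in air L lungs stayed at 0 in all settings tried for them. A value that did not pass is counted here as turning only where it moved by over 1 SE. The number of members passing between air sets on day 7 went from 1 to 0 in the fit of all 72 libraries, and between exposed sets on day 7 from 2 to 1. In air H lungs from day 1 to 7 it went from 1 to 2 with no scaling factors, limma-voom, the animal number series as a block or non-robust dispersion, each time by Apoe. From day 7 to 27 it went from 2 to 1 with RLE size factors, no filter, DESeq2, no shallow libraries or the fit of all 72, each time by loss of Apoe. Leaving out each library gave 0 to 1, 1 to 3, 1 to 2 and 0 to 2 members in these 4 comparisons. With the settings of the Results, 25.5%, 27.9%, 38.6% and 30% of all genes tested passed in them, in that order. The pooled difference of Csf1r was 0.00 over only days 7 and 27 (-0.06 over all). Without animals 089 and 094, the differences at 200 ug/m3 on day 27 became 0.03 for C1qa, 0.14 for C1qb, 0.02 for C1qc, 0.07 for Mrc1 and 0.03 for Csf1r, the dose differences of day 27 became -0.01 for C1qa and -0.02 for Mrc1, and the pooled one of Mrc1 became 0.00. Mrc1 of air H lungs from day 1 to 7 lay between 0.00 and 0.11 when each library was left out. No paired analysis was possible because the labels pair no animals across groups. Depth limits Folr2 and Cd163 most.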
